A study of Homo sapiens with 9 samples.

Results

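Kinesins are motor proteins that use ATP to move along microtubules or to take their ends apart, and the genes examined here are those of the kinesin superfamily. They were taken from the count table of a microRNA overexpression experiment by their symbols, which begin with KIF and a number or with KIFC and a number, and 39 of the 14943 genes in the table qualified. Each was assigned to a role from textbook knowledge. The mitotic kinesins were 12 genes that build, align or cut the spindle or finish cytokinesis (KIF2C, KIF4A, KIF11, KIF14, KIF15, KIF18A, KIF18B, KIF20A, KIF20B, KIF22, KIF23 and KIFC1). The transport kinesins were 17 genes that carry organelles, vesicles and protein complexes along microtubules in neurons and other cells (KIF1A, KIF1B, KIF1C, KIF3A, KIF3B, KIF3C, KIF5A, KIF5B, KIF5C, KIF13A, KIF13B, KIF16B, KIF17, KIF21A, KIF21B, KIFC2 and KIFC3). The other 10 (KIF2A, KIF6, KIF7, KIF9, KIF19, KIF24, KIF25, KIF26A, KIF26B and KIF27) act in cilia, in signalling, or in more than 1 of these settings. KIF2B and KIF4B of the mitotic list, and KIF12 and KIF28P of the other list, were not analysed here. The members are separate genes measured in the same libraries and are not replicates of a condition.

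The cells were SH-Sy5y, a line from a human neuroblastoma that divides in culture and carries features of sympathetic neurons. In the study it served as a host for a mimic of miR-1229-3p, in order to find the direct targets of that microRNA. Every group was transfected for 48 h with 40 pmol of small RNA in all. Ctrl cells received 40 pmol of a negative control oligonucleotide, 10 nM cells received 20 pmol of it together with 20 pmol of the mimic, and 20 nM cells received 40 pmol of the mimic with 0 pmol of the negative control. The groups therefore differ from one another both by the amount of mimic and by that of the negative control oligonucleotide. The effects of these cannot be told apart in any comparison. There were 3 libraries per group, and RNA of a pair of wells was pooled where possible. Nothing states that the libraries came from separate cultures, so p-values measure only the spread between these libraries.

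A dividing cell makes its mitotic kinesins mostly around the G2 and M phases. In many of these genes the promoter holds a cell cycle homology region (CHR), which is bound by the MuvB complexes (DREAM in resting cells, B-MYB and FOXM1 forms in cycling cells), and CCAAT boxes bound by the factor NF-Y. Transport kinesins are made in cells that do not divide as well, and neurons depend on them because cargo has to travel the length of the axon. A microRNA lowers the amount of messenger RNAs whose 3′ untranslated region (UTR) pairs with its seed, which is bases 2 to 8 counted from the 5′ end.

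The sequence of the mature microRNA is shown first because the match to its seed, in capitals, is what would make a kinesin mRNA a direct target.
miR-1229-3p: cUCUCACCacugcccucccacag
The longest annotated 3′ UTR of each gene (GENCODE 44, GRCh38.p14) was read on the transcribed strand for the seed match with its flanking bases, which are GTGAGA (6-mer), GGTGAGA or GTGAGAA (both 7-mers) and GGTGAGAA (8-mer). The shorter motifs lie within the longer ones, so each gene was given its strongest match. A 7-mer or 8-mer was present in 7 of the 39 kinesins (17.9%), against 22.6% of all 13778 genes with a 3′ UTR, so kinesins as a family were no richer in such matches than the table as a whole. The 7 were KIF1A, KIF3C, KIF13B and KIF21B of the transport kinesins and KIF2A, KIF6 and KIF26B of the other kinesins. The 12 mitotic kinesins had 0 matches of 7 or 8 bases, and KIF20B was the only mitotic kinesin with a 6-mer. Their 3′ UTRs were short, with a median of 604 bases, against 2971 bases in transport kinesins and 1552 bases in the other kinesins. KIF13B, KIF3C and KIF2A hold an 8-mer. The 8-mers of KIF3C, a subunit of the heterodimeric kinesin-2 motors of neurons, and of KIF2A, a microtubule depolymerase of spindle poles and growing axons, are printed below with both 7-mers of KIF1A, the motor of synaptic vesicle precursors. The matched bases are in capitals and each sequence is that of the transcribed strand.
KIF3C: gtgtgtgcaggGGTGAGAAtctggcagatg
KIF2A: cattgttgtttGGTGAGAAtcgccaaattc
KIF1A: tcagagttgatGGTGAGAggaggccgcctg
KIF1A: taagtgggggaGGTGAGAcagatctggaaa
In GRCh38.p14 these 30-base stretches lie at chr2:25928837-25928866 (minus strand), chr5:62386724-62386753 (plus strand), chr2:240714734-240714763 and chr2:240714517-240714546 (both minus strand), all within the 3′ UTR exon. The KIF3C match starts at base 123 of a 3′ UTR of 2380 bases, and the KIF2A match at base 1166 of 5456. A match is a description of the sequence and not a measured site.

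Promoters were read from RefSeq (GRCh38.p14) as the 250 bases before and 50 bases after the gene start, which were given for 31 of the 39 kinesins. They were searched on both strands for the CHR motifs TTTGAA and TTCGAA and for CCAAT. A CHR motif was present in 10 of 12 mitotic kinesin promoters and a CCAAT box in 10 of 12, and 9 held both. Of the 12 transport kinesin promoters in the table, 1 held a CHR motif and 3 held a CCAAT box, and KIF5B was the only one with both. Across all 27305 promoters the shares were 16.6% for the CHR motif, 35.7% for CCAAT and 6.6% for both. The mitotic promoters resembled those of the spindle and cytokinesis genes that work with these motors, of which 15 of 18 held a CHR motif and 14 of 18 a CCAAT box. The windows below, from 110 bases before to 39 bases after the start and in the direction of transcription, are those of the 5 mitotic kinesins that fell in the dose trend (KIF15, KIFC1, KIF20A, KIF20B and KIF2C), of KIF14, the mitotic kinesin that rose, and of 3 transport kinesins whose mRNA changed (KIF16B, KIF21A and KIF3C). Capitals mark the CHR and CCAAT motifs on either strand.
KIF15: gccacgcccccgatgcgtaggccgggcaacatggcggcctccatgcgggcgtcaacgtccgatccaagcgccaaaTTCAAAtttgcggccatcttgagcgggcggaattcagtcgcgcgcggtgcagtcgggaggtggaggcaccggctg
KIFC1: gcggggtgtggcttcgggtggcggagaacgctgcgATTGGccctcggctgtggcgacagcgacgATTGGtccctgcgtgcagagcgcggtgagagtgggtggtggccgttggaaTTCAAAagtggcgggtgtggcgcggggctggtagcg
KIF20A: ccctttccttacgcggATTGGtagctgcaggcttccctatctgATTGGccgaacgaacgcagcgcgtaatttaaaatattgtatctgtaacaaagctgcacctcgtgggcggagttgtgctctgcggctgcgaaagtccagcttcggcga
KIF20B: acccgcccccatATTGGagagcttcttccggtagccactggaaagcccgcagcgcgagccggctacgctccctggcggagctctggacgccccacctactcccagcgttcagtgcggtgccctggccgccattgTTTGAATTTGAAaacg
KIF2C: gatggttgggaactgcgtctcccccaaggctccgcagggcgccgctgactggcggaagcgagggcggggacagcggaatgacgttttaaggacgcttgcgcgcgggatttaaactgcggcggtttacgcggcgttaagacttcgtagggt
KIF14: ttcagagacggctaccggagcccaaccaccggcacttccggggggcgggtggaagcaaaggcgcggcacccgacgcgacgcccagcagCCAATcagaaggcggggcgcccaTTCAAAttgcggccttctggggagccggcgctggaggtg
KIF16B: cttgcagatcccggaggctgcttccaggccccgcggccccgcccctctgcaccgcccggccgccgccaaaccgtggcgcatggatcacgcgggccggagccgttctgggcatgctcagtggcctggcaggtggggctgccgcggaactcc
KIF21A: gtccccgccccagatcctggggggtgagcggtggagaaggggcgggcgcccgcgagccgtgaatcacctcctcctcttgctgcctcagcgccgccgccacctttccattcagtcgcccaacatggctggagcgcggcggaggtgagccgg
KIF3C: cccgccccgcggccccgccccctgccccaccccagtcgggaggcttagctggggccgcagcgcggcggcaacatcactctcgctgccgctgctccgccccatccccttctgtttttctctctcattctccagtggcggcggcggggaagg
The windows lie at chr3:44761684-44761833, chr6:33391713-33391862, chr5:138179002-138179151, chr10:89701480-89701629 and chr1:44739727-44739876 (all plus strand) and at chr1:200620712-200620861, chr20:16573409-16573558, chr12:39443081-39443230 and chr2:25982458-25982607 (all minus strand). KIF15, KIFC1 and KIF14 carry a CHR motif within 35 bases of the start. KIF20A has CCAAT boxes only, KIF20B has adjacent CHR motifs after the start and CCAAT boxes before it, and KIF2C has neither motif in the bases searched. Both motifs were thus found in KIF14, which was higher, as well as in KIFC1 and KIF20B, which were lower.

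**Figure D1:**
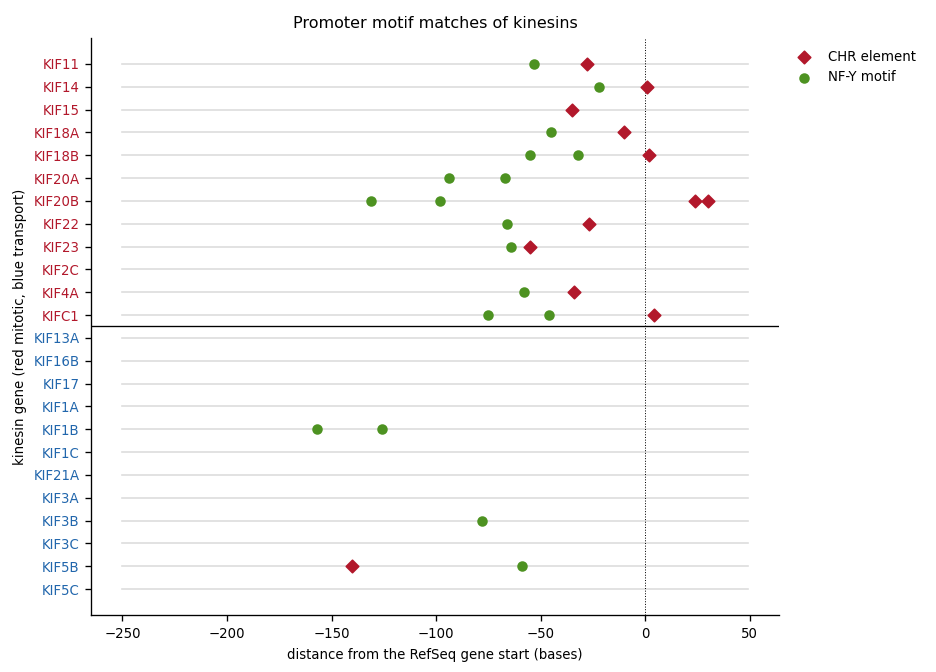
Positions of CHR motifs (red diamonds) and of the CCAAT motif bound by NF-Y (green circles) in the promoters of the 12 mitotic (red names) and 12 transport kinesins (blue names) found in the RefSeq table, in bases from the gene start. Each grey line is the window searched, from 250 bases before to 49 bases after the start. Mitotic kinesins hold motifs in 11 of 12 windows, mostly within 100 bases of the start, while 9 of 12 transport kinesins hold none.

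Libraries held 17.4 to 28.2 M estimated counts, and the 39 kinesins together took between 4219 and 4455 CPM (counts scaled to a common library size, with TMM factors) in each. Counting depth was ample for most members, with 342 counts or more in every library for each of the 12 mitotic kinesins and, except for KIF17 (49 to 115 counts), for each transport kinesin. The library 20 nM replicate 3 stood apart from the other 8, at 47.4 on the first principal component (30.4% of the variance) against -17.1 to 7.72. Fold changes come from a model that holds 1 surrogate variable for such unexplained variation, so they can differ from the ratio of the CPM values, which are not corrected. All 9 libraries entered each fit unless one is named as left out.

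The neuroblastoma cells expressed kinesins of both roles at high levels. Only levels per length can be compared between genes, so CPM was divided by the length of the canonical transcript in kilobases (kb). By this scale the most abundant in Ctrl was KIF21A, a kinesin-4 that slows microtubule growth at the cell cortex, at 85.6 ± 1.64 CPM per kb (mean ± SD, n = 3). It was followed by KIF26A, which binds microtubules but lacks ATPase activity and acts in neuronal signalling, at 69.3 ± 2.0 CPM per kb, and by KIF22, the chromokinesin that pushes chromosome arms away from the poles, at 65.1 ± 1.34 CPM per kb. The last 2 are separated by more than either SD. The following 5 lay close together, with KIF1A at 45.8 ± 4.43, KIF5B at 45.3 ± 2.5, KIF3C at 42.2 ± 0.304, KIFC1 at 41.8 ± 1.32 and KIF5C at 40.4 ± 4.87 CPM per kb, and neighbours in that order differed by less than their spread, except that KIF5B and KIF3C differed by more than the SD of either. Mitotic kinesins ran from KIF20B at 7.10 ± 0.607 to KIF22, and transport kinesins from KIF17 at 0.837 ± 0.181 to KIF21A. The least expressed were KIF25, KIF19 and KIF6, between 0.102 and 0.189 CPM per kb. The summed CPM of mitotic kinesins was 39.5%, 37.1% and 35.1% of that of transport kinesins in the Ctrl libraries, 36.3%, 32.9% and 32.8% in the 10 nM libraries, and 36.0%, 33.7% and 29.8% in the 20 nM libraries. In each of the 6 mimic libraries this share was below that of the control with the same replicate number, although the ranges of the groups overlapped.

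**Figure D2:**
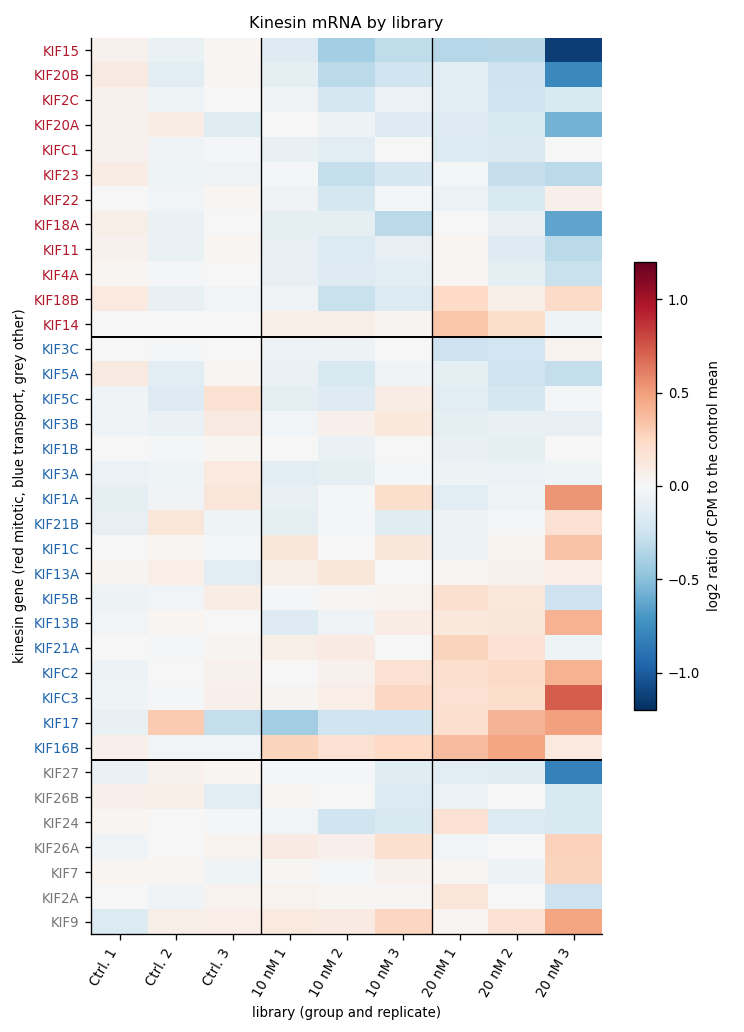
The log2 ratio of CPM to the mean of the 3 Ctrl libraries for the 36 kinesins with at least 1 CPM in Ctrl (rows, grouped as mitotic, transport and other and sorted by their dose trend) in the 9 libraries (columns, by group and replicate). Blue is lower and red is higher than the control mean. Most mitotic rows are blue in the mimic libraries, with KIF14 as an exception and KIF18B as one at 20 nM only. Transport rows are of both colours, and 20 nM replicate 3 has the strongest colours of either kind.

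The question asked of the kinesins was whether the mimic changed them at either concentration, and whether motors of mitosis moved differently from motors of transport. At 10 nM, 0 of the 39 kinesins passed the threshold. This was an adjusted p under 0.05 in the quasi-likelihood test of edgeR, with Benjamini-Hochberg adjustment over all 14943 genes. An unadjusted p under 0.05 was found in 4 of 39 (KIF15, KIF16B, KIF20B and KIF4A), against 2084 of all 14943 genes. A likelihood-ratio test in edgeR called 1, KIF16B, and DESeq2, which gave KIF16B no adjusted p here, called 0. Few genes of any kind changed at this concentration, 0.649% of those tested (0.428% lower and 0.221% higher). At 20 nM, 7 of 39 kinesins (17.9%) passed, against 13.9% of all genes. KIF15, KIFC1 and KIF3C fell (7.69%, against 6.08% of all genes) and KIF14, KIF16B, KIF21A and KIFC2 rose (10.3%, against 7.8%). With concentration as a number (0, 10 and 20 nM, fold change per 20 nM), 11 of 39 (28.2%) followed the dose, against 17.6% of all genes. Of these, 6 fell (15.4%, against 7.64% of all genes) and 5 rose (12.8%, against 9.92%). Between 20 nM and 10 nM, 3 kinesins differed (7.69%), against 2.79% of all genes. KIF3C was lower (0.883% of all genes were) and KIF14 and KIF18B were higher (1.91% of all genes were). The changes were small, none over 0.44 on the log2 scale in either direction among the 7 called at 20 nM. With single libraries left out, the count at 20 nM was 4 without Ctrl replicate 1, 3 without 20 nM replicate 1 and 11 without 20 nM replicate 3, and without the surrogate variable it was 1 (KIFC2). In the dose trend it was 6 without Ctrl replicate 1, 5 without 20 nM replicate 2 and 1 (KIFC2) without the surrogate variable. Between the concentrations it was 0 or 1 with any of the 6 mimic libraries left out. These comparisons share the Ctrl libraries. In bulk RNA, fewer cells in a given phase and less mRNA per cell cannot be told apart.

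Among mitotic kinesins most log2 fold changes were negative. At 10 nM, 11 of 12 had a log2 fold change below 0 (49.8% of all genes did), with a median of -0.11 (0.00047 over all genes). At 20 nM 10 of 12 did (50% of all genes), with a median of -0.12 (-0.00016 over all genes). In the dose trend, 5 of 12 fell and 1 rose, with a median of -0.13 (-0.0019 over all genes). The number that fell was 1 without Ctrl replicate 1 or 20 nM replicate 2, 8 without 20 nM replicate 1 and 0 without the surrogate variable. The 17 transport kinesins were spread around 0, with medians of -0.030 at 10 nM and -0.025 at 20 nM, and 1 fell and 3 rose at 20 nM. In the dose trend 1 of them fell and 4 rose, with a median of 0.027. At 20 nM 2 mitotic kinesins fell and 1 rose, and with a block for the replicate number 3 fell and 0 rose. With that block 0 transport kinesins fell and 3 rose at 20 nM. By library and without the surrogate variable, the median log2 ratio of the mitotic kinesins to the control mean was 0.050, -0.051 and -0.0036 in Ctrl, -0.069, -0.19 and -0.14 at 10 nM, and -0.041, -0.18 and -0.29 at 20 nM. For the transport kinesins it was -0.040, -0.023 and 0.027 in Ctrl, -0.030, -0.012 and 0.045 at 10 nM, and -0.058, 0.043 and 0.084 at 20 nM. All 10 nM libraries lay below every control for the mitotic median, and 20 nM replicate 1 lay within the controls. The difference between the lists was not tested, since the lists were made with earlier results of these data known. At 10 nM, 4 of 12 mitotic kinesins (KIF4A, KIF11, KIF15 and KIF18A) lay below all 3 controls in all 3 libraries, against 9.9% of all genes, and at 20 nM 4 of 12 did (KIF2C, KIF15, KIF20A and KIF20B), against 13.7%. Of the transport kinesins, 4 of 17 lay above all controls at 20 nM (KIF13B, KIF16B, KIFC2 and KIFC3), against 15.2% of all genes, and 1 lay below (KIF3B).

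**Figure D3:**
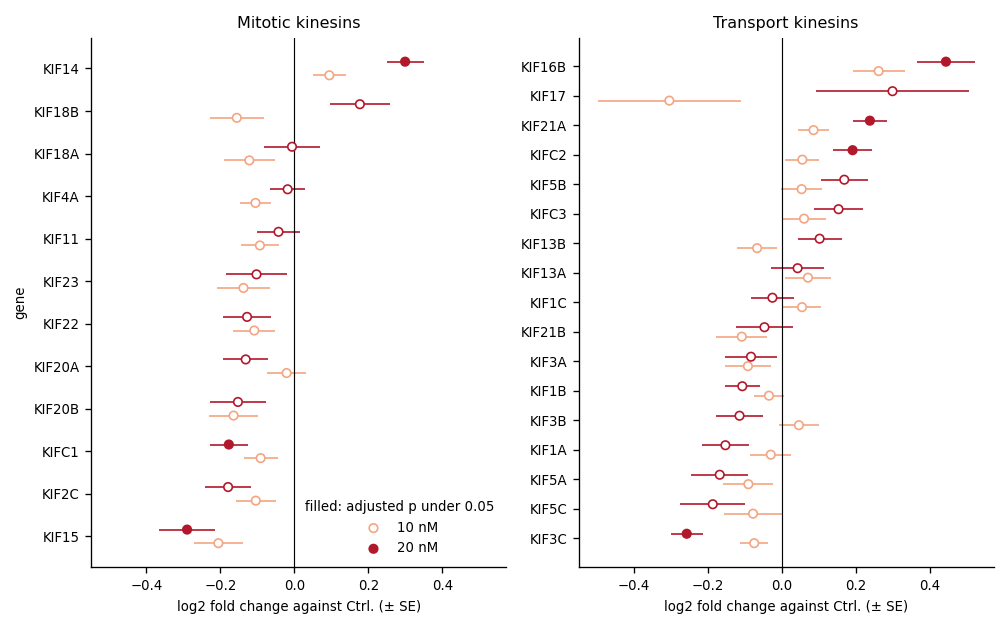
Log2 fold changes against Ctrl with their SE at 10 nM (orange) and 20 nM (red) for the 12 mitotic kinesins (left) and the 17 transport kinesins (right), sorted by the change at 20 nM. Filled points passed an adjusted p of 0.05 in edgeR. On the left, 11 of the 12 points for 10 nM lie below 0 and none is filled. On the right the points for 20 nM run from -0.26 for KIF3C to 0.44 for KIF16B.

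The clearest mitotic change was in KIF15, a plus-end spindle motor that can hold spindle poles apart when KIF11 fails. It was at 49.9, 45.7 and 49.04 CPM in Ctrl, 43.4, 36.4 and 39.0 CPM at 10 nM, and 38.0, 38.4 and 22.0 CPM at 20 nM. All 6 mimic libraries lay below all 3 controls, and 20 nM replicate 3 was far lower than its group. The log2 fold change of KIF15 was -0.21 ± 0.066 (SE, adjusted p = 0.186) at 10 nM, -0.29 ± 0.075 (SE, adjusted p = 0.0229) at 20 nM and -0.41 ± 0.074 (SE, adjusted p = 0.00206) per 20 nM in the dose trend. KIFC1, the minus-end motor that focuses spindle poles and clusters extra centrosomes, was at 103, 97.3 and 99.2 CPM in Ctrl, 93.8, 91.5 and 99.9 CPM at 10 nM, and 89.3, 88.9 and 99.6 CPM at 20 nM. The 20 nM libraries 1 and 2 lay below every control while replicate 3 lay among them. The modelled change of KIFC1 was -0.18 ± 0.052 (SE, adjusted p = 0.041) at 20 nM and -0.16 ± 0.047 (SE, adjusted p = 0.0331) in the dose trend. Numbered replicates deviated together between Ctrl and each mimic group, and when the fit held the replicate number (a block) instead of the surrogate variable, KIFC1 no longer passed at 20 nM (-0.11, adjusted p = 0.223). Without Ctrl replicate 1 neither passed, KIF15 at -0.27 (adjusted p = 0.0714) and KIFC1 at -0.16 (adjusted p = 0.0921). Without Ctrl replicate 3 the values were -0.24 (adjusted p = 0.0944) and -0.20 (adjusted p = 0.0557), and KIFC1 was also lost without 20 nM replicate 1 or 2 (-0.18 and -0.17, adjusted p = 0.116 and 0.163). KIFC1 missed the threshold in the dose trend without Ctrl replicate 1, 20 nM replicate 1 or 20 nM replicate 2 (adjusted p = 0.0913, 0.0679 and 0.122).

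A further 3 mitotic kinesins fell in the dose trend but not in the comparison of 20 nM with Ctrl. KIF20A, which brings the chromosomal passenger complex to the midzone of the dividing cell, was at 89.8, 92.1 and 78.4 CPM in Ctrl, 87.1, 83.2 and 78.0 CPM at 10 nM, and 78.0, 76.0 and 58.6 CPM at 20 nM. All 20 nM libraries lay below the lowest control, narrowly in replicate 1, and the 10 nM libraries overlapped the controls. Its change in the dose trend was -0.18 ± 0.055 (SE, adjusted p = 0.0316), and at 20 nM it was -0.13 ± 0.061 (SE, adjusted p = 0.182). Exons of KIF20A overlap those of BRD8 and CDC23 on the opposite strand, and whether the counting used strand is not stated, so reads could be shared. KIF20B, a motor of cytokinesis, was at 49.4, 41.6 and 46.2 CPM in Ctrl, 42.2, 36.5 and 38.9 CPM at 10 nM, and 41.5, 38.6 and 26.8 CPM at 20 nM. The 20 nM values lay below all controls, narrowly in replicate 1, and the change was -0.25 ± 0.077 (SE, adjusted p = 0.0393) in the dose trend and -0.15 ± 0.075 (SE, adjusted p = 0.205) at 20 nM. KIF2C, the depolymerase (MCAK) that removes wrongly attached microtubules from kinetochores, was at 86.1, 79.8 and 83.0 CPM in Ctrl, 80.6, 71.6 and 79.0 CPM at 10 nM, and 75.4, 70.3 and 72.9 CPM at 20 nM. Its groups did not overlap between 20 nM and Ctrl, and its change was -0.19 ± 0.056 (SE, adjusted p = 0.0348) in the dose trend and -0.18 ± 0.062 (SE, adjusted p = 0.0764) at 20 nM. With the replicate block KIF20A and KIF2C passed at 20 nM as well (-0.30, adjusted p = 0.0236, and -0.19, adjusted p = 0.0461). Without 20 nM replicate 3, KIF20A and KIF20B no longer passed in the dose trend (-0.15, adjusted p = 0.112, and -0.20, adjusted p = 0.11), whereas KIF20A and KIF2C then passed at 20 nM against Ctrl (-0.17, adjusted p = 0.0417, and -0.19, adjusted p = 0.0426). The dose trend of each also missed the threshold without Ctrl replicate 1 or 20 nM replicate 2 (adjusted p = 0.0835 to 0.174), that of KIF20A without Ctrl replicate 2 or 10 nM replicate 2 (0.0614 and 0.0525), and those of KIF20B and KIF2C without Ctrl replicate 3 (0.147 and 0.0776).

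KIF14 moved the other way. It is a kinesin-3 that works with citron kinase and PRC1 in cytokinesis, and was at 56.2, 56.0 and 55.6 CPM in Ctrl, 58.9, 58.6 and 57.3 CPM at 10 nM, and 70.5, 64.9 and 53.9 CPM at 20 nM. The controls lay close together, the 10 nM libraries all lay just above them, and at 20 nM replicates 1 and 2 were higher still while replicate 3 lay below every control. The modelled change of KIF14 was 0.094 ± 0.045 (SE, adjusted p = 0.371) at 10 nM, 0.30 ± 0.05 (SE, adjusted p = 0.00184) at 20 nM and 0.20 ± 0.047 (SE, adjusted p = 0.0391) between 20 nM and 10 nM. The rise at 20 nM did not pass with the replicate block (0.17, adjusted p = 0.174), without the surrogate variable (0.18, adjusted p = 0.243) or without 20 nM replicate 1 (0.20, adjusted p = 0.0628). Its change in the dose trend was 0.25 ± 0.05 (SE, adjusted p = 0.00388), and 0.13 (adjusted p = 0.119) without 20 nM replicate 1. KIF18B, which shortens astral microtubules late in mitosis, differed between the concentrations. It was at 92.5, 80.1 and 83.0 CPM in Ctrl, 83.0, 70.6 and 76.0 CPM at 10 nM, and 101, 89.3 and 99.7 CPM at 20 nM. Against the control of the same number, 3 of 3 libraries were lower at 10 nM and 3 of 3 were higher at 20 nM, and the groups of 10 nM and 20 nM did not overlap. The change was -0.16 ± 0.073 (SE, adjusted p = 0.364) at 10 nM and 0.18 ± 0.081 (SE, adjusted p = 0.177) at 20 nM, neither of which passed, and 0.33 ± 0.078 (SE, adjusted p = 0.0409) between them. The difference between the concentrations was not past the threshold without Ctrl replicate 3, 10 nM replicate 2 or 3, or 20 nM replicate 1 or 3 for KIF18B (adjusted p = 0.0527 to 0.296), or without Ctrl replicate 2 or any mimic library for KIF14 (0.0511 to 0.437).

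The remaining mitotic kinesins did not pass in any comparison. KIF11 (Eg5), the motor that pushes spindle poles apart, was at 119, 109 and 117 CPM in Ctrl, 108, 102 and 107.4 CPM at 10 nM, and 117, 103 and 91.7 CPM at 20 nM. At 10 nM all libraries lay below the controls, at 20 nM replicate 1 lay among them, and the modelled changes were -0.093 ± 0.051 (SE, adjusted p = 0.445) and -0.043 ± 0.058 (SE, adjusted p = 0.691). KIF22 was at 136, 133 and 138 CPM in Ctrl, 131, 117 and 134 CPM at 10 nM, and 129, 119.6 and 142 CPM at 20 nM, with changes of -0.11 ± 0.056 (SE, adjusted p = 0.415) and -0.13 ± 0.064 (SE, adjusted p = 0.217). KIF4A, which sets the length of the midzone together with PRC1, KIF18A, which dampens chromosome movements at the metaphase plate, and KIF23, the motor of the centralspindlin complex, had log2 fold changes of -0.10, -0.12 and -0.14 at 10 nM and of -0.018, -0.0063 and -0.10 at 20 nM.

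Of the motors of transport, the kinesin-3 KIF16B, which moves early endosomes towards microtubule plus ends, changed most. It was at 19.8, 18.5 and 18.4 CPM in Ctrl, 22.7, 21.4 and 22.3 CPM at 10 nM, and 24.6, 26.3 and 20.5 CPM at 20 nM. All 6 mimic libraries lay above the highest control. The log2 fold change of KIF16B was 0.26 ± 0.07 (SE, adjusted p = 0.124) at 10 nM, 0.44 ± 0.078 (SE, adjusted p = 0.00263) at 20 nM and 0.40 ± 0.072 (SE, adjusted p = 0.0018) in the dose trend. Of the 19 alternatives, the fit without the low-count filter repeated the main fit, because that filter removed 0 genes. KIF16B passed at 20 nM under 18 of the 19, the exception being the fit without the surrogate variable (0.33, adjusted p = 0.067). The related KIF1A was at 384, 407 and 463 CPM in Ctrl, 394, 414 and 485 CPM at 10 nM, and 382, 403 and 603 CPM at 20 nM. Its 20 nM replicate 3 was far above the rest while replicates 1 and 2 lay with the lower controls, and the modelled change was -0.15 ± 0.064 (SE, adjusted p = 0.137). This value for KIF1A depended on the correction, at 0.15 without the surrogate variable and 0.12 with the replicate block. KIF1B, KIF1C, KIF13A and KIF13B had log2 fold changes between -0.11 and 0.10 at 20 nM and did not pass.

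KIF21A rose. It was at 542, 536 and 557 CPM in Ctrl, 573, 583 and 546 CPM at 10 nM, and 655, 615 and 526 CPM at 20 nM. At 20 nM replicates 1 and 2 lay well above all controls, and replicate 3 lay below them. The modelled change of KIF21A was 0.086 ± 0.041 (SE, adjusted p = 0.373) at 10 nM, 0.24 ± 0.046 (SE, adjusted p = 0.00489) at 20 nM and 0.20 ± 0.044 (SE, adjusted p = 0.00762) in the dose trend. It did not pass at 20 nM with the replicate block (0.13, adjusted p = 0.234), without the surrogate variable (0.13, adjusted p = 0.313) or without 20 nM replicate 1 (0.16, adjusted p = 0.107), and without that library it also missed the threshold in the dose trend (0.10, adjusted p = 0.158). Its relative KIF21B, with a 7-mer match, was at 38.3 ± 3.46 CPM in Ctrl (SD, n = 3), 36.0 ± 1.76 CPM at 10 nM and 39.4 ± 3.63 CPM at 20 nM, with a change of -0.047 ± 0.078 (SE, adjusted p = 0.757) at 20 nM.

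The minus-end motors KIFC2 and KIFC3 were higher with more mimic. KIFC2, a motor found in axons and dendrites, was at 78.0, 81.4 and 84.2 CPM in Ctrl, 81.5, 84.3 and 92.1 CPM at 10 nM, and 93.5, 95.4 and 109 CPM at 20 nM. All 20 nM libraries lay above all controls, and the change was 0.19 ± 0.052 (SE, adjusted p = 0.0271) at 20 nM and 0.22 ± 0.048 (SE, adjusted p = 0.00632) in the dose trend. KIFC2 was the only kinesin that also passed at 20 nM without the surrogate variable, but it did not pass without Ctrl replicate 1 (0.16, adjusted p = 0.0993), Ctrl replicate 2 (0.20, adjusted p = 0.0504), 20 nM replicate 1 (0.21, adjusted p = 0.0636) or 20 nM replicate 2 (0.18, adjusted p = 0.116), nor in the dose trend without 20 nM replicate 2 (0.20, adjusted p = 0.0501). An exon of KIFC2 overlaps FOXH1 on the opposite strand. KIFC3, which acts at cell junctions and at the Golgi, was at 26.4, 27.0 and 28.6 CPM in Ctrl, 27.9, 28.8 and 32.5 CPM at 10 nM, and 31.0, 31.7 and 45.3 CPM at 20 nM. The 20 nM libraries lay above the controls, with replicate 3 far above, and the change was 0.23 ± 0.059 (SE, adjusted p = 0.0154) in the dose trend and 0.15 ± 0.066 (SE, adjusted p = 0.148) at 20 nM. With the replicate block KIFC3 passed at 20 nM too (0.38, adjusted p = 0.0304), and so it did without 20 nM replicate 3 (0.20, adjusted p = 0.0466), while in the dose trend it was then lost (0.17, adjusted p = 0.0696), as it was without Ctrl replicate 1 or 20 nM replicate 2 (0.0849 and 0.065).

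KIF3C, with the 8-mer printed above, was the only transport kinesin that fell. It was at 226, 224 and 227 CPM in Ctrl, 214, 216 and 226 CPM at 10 nM, and 190.3, 192 and 232 CPM at 20 nM. The 3 controls lay close together, 20 nM replicates 1 and 2 lay well below them, and replicate 3 lay above them. The modelled change of KIF3C was -0.075 ± 0.038 (SE, adjusted p = 0.399) at 10 nM, -0.26 ± 0.043 (SE, adjusted p = 0.00207) at 20 nM, -0.18 ± 0.041 (SE, adjusted p = 0.0325) between 20 nM and 10 nM and -0.21 ± 0.044 (SE, adjusted p = 0.00422) in the dose trend. With the replicate block it did not pass at 20 nM (-0.14, adjusted p = 0.172), nor without the surrogate variable (-0.14, adjusted p = 0.3), and in the dose trend it was lost without 20 nM replicate 1 (-0.15, adjusted p = 0.0512). In the uncorrected CPM the groups overlapped. KIF3A, its kinesin-2 partner, and KIF3B, the other partner of KIF3A, had changes of -0.083 ± 0.07 (SE, adjusted p = 0.481) and -0.11 ± 0.063 (SE, adjusted p = 0.264) at 20 nM. The other 6 kinesins with a 7-mer or 8-mer match did not pass in any comparison, and the median log2 fold change at 20 nM was -0.013 over the 7 with such a match and -0.024 over the 24 without any match. The part of the seed match in the fall of KIF3C was not tested.

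The kinesin-1 heavy chains, which carry mitochondria and vesicles down the axon, did not pass. KIF5C, the neuronal form, was at 273, 252 and 318 CPM in Ctrl, 259, 253 and 298.7 CPM at 10 nM, and 258, 245 and 276 CPM at 20 nM, with overlapping groups and a change of -0.19 ± 0.088 (SE, adjusted p = 0.189) at 20 nM. The ubiquitous KIF5B was at 266 ± 14.7 CPM in Ctrl (SD, n = 3), 268 ± 5.81 CPM at 10 nM and 272 ± 43.0 CPM at 20 nM, and the neuronal KIF5A at 48.9 ± 4.08 CPM in Ctrl (SD, n = 3), 45.6 ± 2.26 CPM at 10 nM and 42.2 ± 2.69 CPM at 20 nM, with changes of 0.17 ± 0.063 (SE, adjusted p = 0.1) and -0.17 ± 0.076 (SE, adjusted p = 0.173) at 20 nM. Without 20 nM replicate 3, KIF5B was among the 11 kinesins that passed at 20 nM. KIF17, a motor of dendrites and cilia, had the fewest counts of the transport kinesins, and its change at 20 nM was 0.30 ± 0.21 (SE, adjusted p = 0.385).

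**Figure D4:**
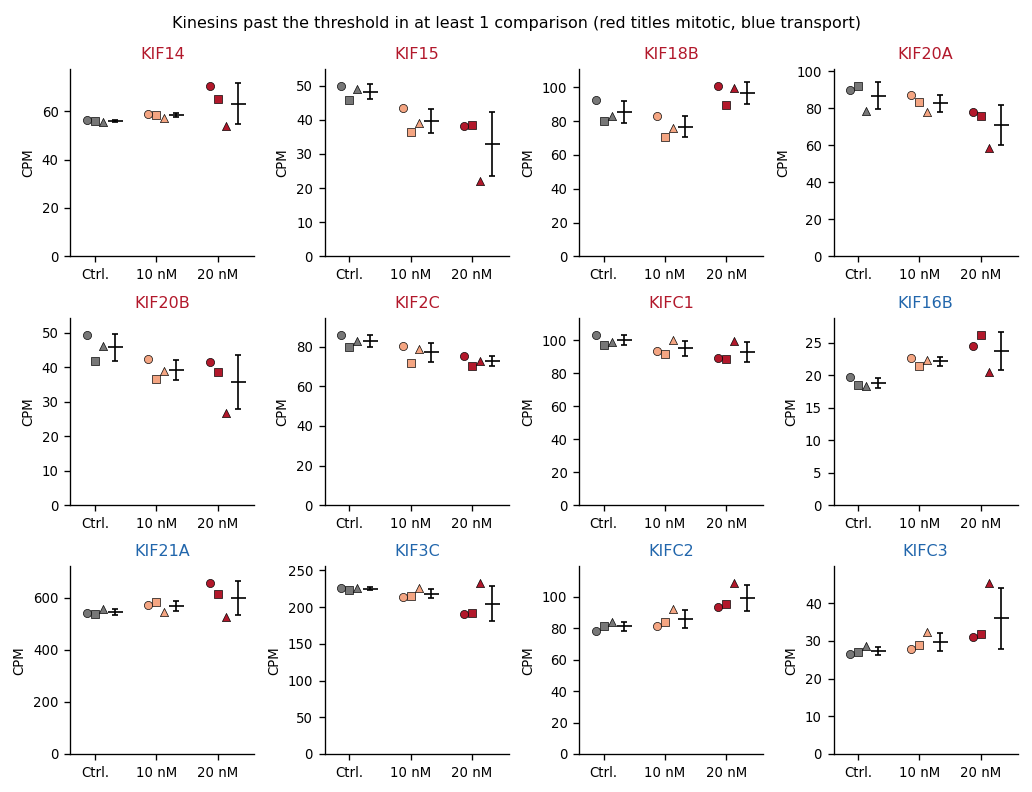
CPM in each library for the 12 kinesins past the threshold in at least 1 comparison (red titles mitotic, blue titles transport), with axes from 0. Circles, squares and triangles are replicates 1, 2 and 3, and the black bars are the mean ± SD (n = 3) of each group. KIF15, KIF20A and KIF20B show 20 nM replicate 3 (red triangle) below the other 20 nM libraries, and KIF3C, KIFC2 and KIFC3 show it above them.

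None of the 10 other kinesins passed in any comparison. KIF26A was at 464, 478 and 491 CPM in Ctrl, 512, 497 and 547 CPM at 10 nM, and 466, 476 and 577 CPM at 20 nM. The 10 nM libraries lay above all controls and the 20 nM libraries overlapped them, with changes of 0.087 ± 0.041 (SE, adjusted p = 0.366) and -0.043 ± 0.047 (SE, adjusted p = 0.605). KIF26B, a relative without known motor activity, was at 190.3, 192 and 166 CPM in Ctrl, 185, 183 and 164 CPM at 10 nM, and 175, 182 and 161 CPM at 20 nM, with changes of -0.026 ± 0.059 (SE, adjusted p = 0.884) and -0.013 ± 0.068 (SE, adjusted p = 0.931). KIF2A, which holds an 8-mer, was at 126, 123 and 129 CPM in Ctrl, 130.0, 127 and 127 CPM at 10 nM, and 139, 126 and 106 CPM at 20 nM, with changes of 0.056 ± 0.044 (SE, adjusted p = 0.604) and 0.10 ± 0.05 (SE, adjusted p = 0.224) at 10 and 20 nM. With the replicate block its value at 20 nM was -0.028 on the log2 scale. KIF7, a regulator of Hedgehog signalling in cilia, KIF24, which trims centriolar microtubules, and KIF9 and KIF27, genes of motile cilia, had log2 fold changes between -0.10 and 0.06 at 20 nM. KIF6, KIF19 and KIF25 had 5 to 41 counts per library, and their changes of 0.66, 0.23 and -0.020 at 20 nM had SEs of 0.42 to 0.45.

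How far 20 nM replicate 3 departed from replicates 1 and 2 went with base composition. Over the 36 kinesins with at least 1 CPM in Ctrl, the log2 ratio of replicate 3 to the mean of replicates 1 and 2 correlated with the GC content of the transcript (Pearson r = 0.803 across genes, which share a library and are not independent). Over all 13616 genes with GC values and a mean of at least 1 CPM across all libraries, r was 0.549. The 12 kinesins with less than 45% GC had a median ratio of -0.33 and the 11 with 55% GC or more one of 0.22, against -0.26 and 0.25 over all genes of these classes. Mitotic kinesins were poorer in GC than transport kinesins (median 43.9% against 51.1%), and their median ratio was -0.25, against 0.13. KIF15 (40.95% GC) stood at -0.80, KIF20B (34.31%) at -0.58 and KIF18A (36.03%) at -0.58, whereas KIF1A (61.04%) stood at 0.62 and KIFC3 (64.07%) at 0.53. The fits were also run without this library, which changes the surrogate variable as well. Its part in the lower mitotic levels was therefore not isolated. Without 20 nM replicate 3 and with 1 surrogate variable, 11 kinesins passed at 20 nM, including the 7 called with it. Over all 14943 genes 1194 were then lower and 1462 higher, against 909 and 1165 with the library kept. The mitotic median at 20 nM was then -0.14, with 4 lower and 1 higher. The dose trend had 3 mitotic kinesins lower and 1 higher in that fit, against 5 and 1 with the library kept. When the number of surrogate variables was estimated again without it, 19 kinesins passed at 20 nM. Of these, 7 mitotic kinesins were lower and 2 higher, and 5 transport kinesins were lower and 5 higher. The calls over all genes rose as well, to 2074 lower and 2296 higher at 20 nM. At 10 nM, 6 kinesins then passed, with KIF4A, KIF15, KIF18B and KIF20B lower and KIF16B and KIF26A higher. Over all genes 608 were lower and 710 higher at 10 nM in that fit, against 64 and 33 in the main fit. In the dose trend 3 mitotic kinesins were then lower and 2 higher. Without any surrogate variable, 0 mitotic kinesins passed at 20 nM, although their median was -0.17.

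**Figure D5:**
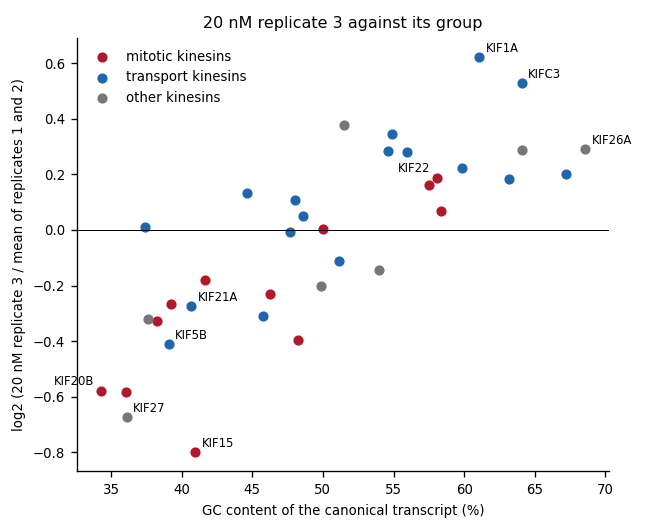
The log2 ratio of CPM in 20 nM replicate 3 to the mean of 20 nM replicates 1 and 2 (vertical) against the GC content of the canonical transcript in percent (horizontal) for the 36 kinesins with at least 1 CPM in Ctrl, coloured by role. The points rise from left to right (r = 0.803), with the mitotic KIF15, KIF20B and the cilium gene KIF27 at the bottom left and KIF1A and KIFC3 at the top right.

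Of 23 spindle and cytokinesis genes, whose proteins work with the mitotic motors, 0 passed at 10 nM. An unadjusted p under 0.05 was found there in 5 of 23, against 2084 of all 14943 genes. At 20 nM 2 fell (8.7%, against 6.08% of all genes), and 7 fell in the dose trend (30.4%, against 7.64%). The medians were -0.068 at 10 nM, -0.066 at 20 nM and -0.11 in the dose trend. In the dose trend RACGAP1 passed under 19 of 19 alternatives in the processing. NUSAP1 passed there under 18 of 19 and was lost without 20 nM replicate 2. How the counts of the whole list moved under the alternatives is not reported here. RACGAP1, which binds KIF23 to form centralspindlin, was at 138, 134 and 141 CPM in Ctrl, 123, 118 and 117 CPM at 10 nM, and 111, 105 and 104 CPM at 20 nM. All groups were separate, with every 20 nM library below every 10 nM library and those below every control, and the change was -0.20 ± 0.042 (SE, adjusted p = 0.0573) at 10 nM and -0.34 ± 0.049 (SE, adjusted p = 0.000612) at 20 nM. It passed under 19 of 19 alternatives at 20 nM. NUSAP1, a microtubule-bundling protein of the spindle, was at 95.3, 89.9 and 92.3 CPM in Ctrl, 85.2, 84.7 and 85.6 CPM at 10 nM, and 85.2, 77.6 and 75.2 CPM at 20 nM, with all mimic libraries below all controls. Its change was -0.17 ± 0.051 (SE, adjusted p = 0.0426) at 20 nM, which missed the threshold under 8 of 19 alternatives. CENPE, itself a kinesin of the kinetochore under another name, was at 67.3, 66.2 and 68.8 CPM in Ctrl, 64.1, 61.2 and 62.0 CPM at 10 nM, and 68.1, 62.9 and 30.3 CPM at 20 nM. Its 20 nM replicate 3 held less than any other library, and the change was 0.012 ± 0.072 (SE, adjusted p = 0.942) at 20 nM.

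Among the 19 adaptors that link kinesin-1 and kinesin-2 to their cargo, 2 fell (10.5%, against 6.08% of all genes) and 1 rose (5.26%, against 7.8%) at 20 nM (median 0.0087). TRAK1, which links kinesin-1 to mitochondria, was at 123 ± 3.75 CPM in Ctrl (SD, n = 3), 110.2 ± 1.94 CPM at 10 nM and 103 ± 4.62 CPM at 20 nM. It fell by 0.30 on the log2 scale at 20 nM (adjusted p = 0.00151 in edgeR). KLC4, a kinesin light chain, was at 26.4 ± 1.64 CPM in Ctrl (SD, n = 3), 25.7 ± 0.476 CPM at 10 nM and 21.2 ± 1.17 CPM at 20 nM and fell by 0.26 (adjusted p = 0.0387 in edgeR), which missed the threshold under 6 of 19 alternatives. The motor of the opposite direction, cytoplasmic dynein with dynactin, had 2 of 25 genes lower at 20 nM (8.0%, against 6.08% of all genes) and 0 higher (median -0.085). These were the light chain DYNLL2, at 158 ± 1.37 CPM in Ctrl (SD, n = 3), 146 ± 2.17 CPM at 10 nM and 132 ± 22.1 CPM at 20 nM with a change of -0.43 ± 0.053 (SE, adjusted p = 0.000259), and the dynactin subunit DCTN4, at 106 ± 3.03 CPM in Ctrl (SD, n = 3), 92.0 ± 2.74 CPM at 10 nM and 77.7 ± 8.30 CPM at 20 nM with a change of -0.36 ± 0.06 (SE, adjusted p = 0.00193). DYNLL2 did not pass with the replicate block or without the surrogate variable.

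The tracks on which the motors run are made of tubulin. Of 21 tubulins and neuronal microtubule proteins, 10 fell and 1 rose at 20 nM (47.6% and 4.76%, against 6.08% and 7.8% of all genes), with a median of -0.21, and 10 fell in the dose trend. DCX (doublecortin), a microtubule stabiliser of young neurons, was at 277, 233 and 312 CPM in Ctrl, 218, 189 and 245 CPM at 10 nM, and 180.5, 163 and 166 CPM at 20 nM. Its 20 nM libraries lay below all others and its 10 nM libraries overlapped the controls, with a change of -0.68 ± 0.12 (SE, adjusted p = 0.00252) at 20 nM. TUBA1A, the main neuronal alpha-tubulin, was at 1438, 1459 and 1589 CPM in Ctrl, 1269, 1298 and 1491 CPM at 10 nM, and 1108, 1156 and 1240.0 CPM at 20 nM, with a change of -0.43 ± 0.065 (SE, adjusted p = 0.000922). STMN1, which binds free tubulin, was at 664 ± 12.2 CPM in Ctrl (SD, n = 3), 585 ± 17.5 CPM at 10 nM and 479.7 ± 82.7 CPM at 20 nM with a change of -0.31 ± 0.045 (SE, adjusted p = 0.00078), and the beta-tubulin TUBB2B was at 585 ± 12.6 CPM in Ctrl (SD, n = 3), 566 ± 34.4 CPM at 10 nM and 553 ± 96.4 CPM at 20 nM with a change of -0.26 ± 0.05 (SE, adjusted p = 0.00442). TUBB2B did not pass with the replicate block, without the surrogate variable or without 20 nM replicate 1. Tubulin genes are close copies, so reads can be split between them.

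Markers of cell division were mostly below their control level, as the mitotic kinesins were, and their part in the kinesin changes was not tested. Of 18 proliferation markers, 0 passed at 10 nM (0.649% of all genes did). An unadjusted p under 0.05 was found in 8 of 18, against 2084 of all 14943 genes. E2F1, MCM7 and TYMS fell at 20 nM (16.7%, against 6.08% of all genes). The median over the list was -0.10 at 10 nM and -0.13 at 20 nM. At 20 nM 16 of 18 had a log2 fold change below 0 (50% of all genes did). The summed level of the 18 markers was 3730 to 3989 CPM in Ctrl, 3438 to 3672 CPM at 10 nM and 3427 to 3807 CPM at 20 nM. MKI67, the antigen of cycling cells, was at 476, 429.9 and 432 CPM in Ctrl, 396, 366 and 382 CPM at 10 nM, and 416, 377 and 342 CPM at 20 nM. Every mimic library lay below every control, but the change did not pass at 10 nM, -0.20 ± 0.048 (SE, adjusted p = 0.0908), or at 20 nM, -0.14 ± 0.056 (SE, adjusted p = 0.107). At 20 nM it passed with the replicate block (-0.24, adjusted p = 0.0286 in edgeR) and without 20 nM replicate 1 (adjusted p = 0.0496). It also passed there without 20 nM replicate 3 and with re-estimated variables (adjusted p = 0.000382 in edgeR). At 10 nM MKI67 passed under 3 of 19 alternatives. Its dose trend did not pass in the main fit (adjusted p = 0.0581 in edgeR) but did under 9 of 19. E2F1, a factor that starts DNA replication, was at 116, 101 and 118 CPM in Ctrl, 93.6, 83.4 and 99.9 CPM at 10 nM, and 71.9, 72.5 and 125 CPM at 20 nM, with 20 nM replicate 3 above all controls and a modelled change of -0.67 ± 0.088 (SE, adjusted p = 0.000388) at 20 nM. At 10 nM E2F1 did not pass in the main fit (adjusted p = 0.0566 in edgeR) but did under 9 of 19 alternatives. MCM7, of the replicative helicase, and TYMS, which makes thymidylate, had changes of -0.29 ± 0.058 (SE, adjusted p = 0.00575) and -0.15 ± 0.046 (SE, adjusted p = 0.0452) at 20 nM. None of E2F1, MCM7 and TYMS passed at 20 nM with the replicate block in edgeR (-0.35, -0.14 and -0.14, adjusted p = 0.108, 0.32 and 0.105) or without the surrogate variable (adjusted p = 0.304, 0.46 and 0.163). MCM7 was also lost without 20 nM replicate 2 (adjusted p = 0.0548), and TYMS without any 1 of the controls, 10 nM replicate 2, or 20 nM replicate 1 or 2 (adjusted p = 0.0565 to 0.254). As for the cell line itself, markers of noradrenergic neuroblastoma were present in all 10 of 10 cases, though TH was at 0.12 to 0.91 CPM. Of these markers 4 fell at 20 nM (40.0%, against 6.08% of all genes), ISL1, STMN2 and TH among them. The summed level was 6582 to 6662 CPM in Ctrl, 6894 to 7351 CPM at 10 nM and 6523 to 7721 CPM at 20 nM. Of 12 mesenchymal markers, 9 were in the table, with 1159 to 1263 CPM in Ctrl, 1127 to 1250.3 CPM at 10 nM and 935 to 1196 CPM at 20 nM. At 20 nM 1 of the 9 rose (11.1%, against 7.8% of all genes) and 0 fell. This was CD44, which rose by 1.31 on the log2 scale (adjusted p = 0.00293 in edgeR) from a mean of 1.36 to 3.18 CPM. Of 8 glial markers 4 were in the table. The other 4 were not analysed here, and those in the table summed to 6.15 to 7.98 CPM in all 9 libraries.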

How the data were processed

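RNA-seq libraries of SH-Sy5y cells (3 each for Ctrl, 10 nM and 20 nM of the miR-1229-3p mimic) were made by the authors by polyA sequencing. According to the authors' methods, the deposited estimated counts were made with salmon against GRCh38.p13 (Ensembl 107) and summed by gene symbol, and 88.8% of the values are not whole. They were rounded to whole numbers here. Totals of 17.4 to 28.2 M per library set the precision, which limits only the few kinesins with under about 100 counts. Of the deposited tables, log2 values corrected for surrogate variables and the authors' own fold changes and p-values were not used.

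Kinesins were taken by symbol and sorted by role. Members, role lists and partner lists were chosen with earlier results of these data known, so no p-value is given for a list. All 14943 genes were fitted in edgeR 4.0.16 (R 4.3.3) with TMM scaling, the quasi-likelihood test and 1 surrogate variable from sva 3.50.0, over 9 libraries. The study's own test and number of surrogate variables are not given in the sources used here. Benjamini-Hochberg adjustment ran over all genes in each of 4 comparisons, with a threshold of 0.05. The SE of a log2 fold change is its size divided by the square root of F. CPM and fold changes use TMM factors. A prior count of 2 was used only in the log2 CPM for the surrogate variable, the principal components and the correlations between libraries. Kinesins named with every library's value were those past the threshold in any comparison and the 3 with the highest control CPM of each role. From each partner list at most the 4 genes with the smallest adjusted p at 20 nM past the threshold were named, with MKI67 and CENPE in any case. Values of some genes that this rule names are not reported here.

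The replicate numbers pair the libraries for the comparisons with Ctrl, but the main fit held the surrogate variable and no replicate block. Same-numbered libraries deviated together from their group means (r = 0.177, 0.142 and 0.185 between Ctrl and 10 nM, 0.116, 0.107 and 0.116 between Ctrl and 20 nM). Between 10 nM and 20 nM r was 0.174, 0.0288 and 0.176, which does not meet the same standard in each pair. Libraries of a group differed beyond sampling noise (chi-square per degree of freedom of 4.78 to 47), so each counted as a sample. The scripts were tested on simulated data. Gene models were matched to GENCODE 44 by identifier (14105 genes) or symbol (754), and 84 were not matched. Promoters, for 31 of the 39 kinesins, and the mature microRNA came from RefSeq tables. No sequence of KIF13B or KIFC2 is shown. Alternatives were other scalings, filters on low counts, a likelihood-ratio test, DESeq2 1.42.0, no or 1 more surrogate variable, the replicate block and the omission of each library in turn. Whether the counting used strand is not given in the sources used here.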

Additional observations from a re-analysis of the deposited data

Results flagged for a closer look

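For 3 kinesins the level differed between the concentrations in the test of 20 nM against 10 nM (edgeR quasi-likelihood test, 3 libraries per group). KIF14 was 0.20 higher on the log2 scale at 20 nM than at 10 nM (adjusted p = 0.0391), with replicates 1 and 2 above all 10 nM libraries and replicate 3 below them. KIF18B was 0.33 higher (adjusted p = 0.0409), with a change of -0.16 at 10 nM and 0.18 at 20 nM against Ctrl and no overlap between the concentrations. KIF3C was lower by -0.18 on the log2 scale (adjusted p = 0.0325), with replicates 1 and 2 below all 10 nM libraries and replicate 3 above them. Each of the 3 missed the threshold in at least 5 of the 9 fits that left out 1 library, and the replicate block called KIF18B only.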

How the results depend on the processing

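Results were recomputed under up to 19 alternatives and none of the changes past the threshold turned its direction. A change of sign in a value that had not passed was not counted as a reversal. The alternative without the low-count filter gave the values of the main fit, because that filter removed 0 genes. Depth limits KIF6, KIF19 and KIF25 most, with 5 to 41 counts per library. The number of kinesins past the threshold at 10 nM (0) was 1 with the likelihood-ratio test and 6 when 20 nM replicate 3 was left out and the number of surrogate variables estimated again, and 0 with each library left out otherwise. At 20 nM (7) it was 1 without a surrogate variable, 19 without replicate 3 and with re-estimated variables, and 3 to 11 with single libraries left out. With the replicate block it was 6, with 3 mitotic kinesins lower and 0 higher, and 0 transport kinesins lower and 3 higher. KIF14, KIF21A, KIF3C and KIFC1 were lost under that block, and KIF20A, KIF2C and KIFC3 were gained. Between 20 nM and 10 nM (3) it was 0 without a surrogate variable, 1 with the replicate block (KIF18B), 8 with re-estimated variables and 0 to 3 with single libraries left out. In the dose trend (11) it was 1 without a surrogate variable and 5 to 12 with single libraries left out, and the replicate block gave 9. The median of the transport kinesins at 20 nM (-0.0253) was 0.0525 without a surrogate variable, 0.0544 with the replicate block and -0.0387 to 0.0564 with single libraries left out. Leaving out single libraries gave medians of -0.0752 to 0.06 for mitotic kinesins between 20 nM and 10 nM, of -0.234 to -0.104 for mitotic kinesins in the dose trend and of -0.0176 to 0.084 for transport kinesins in the dose trend. The mitotic medians at 10 nM and 20 nM were below 0 under each alternative (-0.136 to -0.0783 and -0.176 to -0.0427 with single libraries left out). The cause of these shifts was not tested. For all genes the counts, as lower and higher, moved by over 1.5 times under several settings. At 10 nM (64 and 33) they were 202 and 188 with the likelihood-ratio test, 113 and 105 with DESeq2, 4 and 1 without a surrogate variable, 3 and 0 with the replicate block, 608 and 710 with re-estimated variables, and 27 and 7 (Ctrl replicate 1) to 89 and 71 (20 nM replicate 3) with single libraries left out. At 20 nM (909 and 1165) they were 381 and 573 without a surrogate variable, 2074 and 2296 with re-estimated variables, 440 and 634 without 20 nM replicate 2 and 558 and 763 without replicate 1. Between the concentrations (132 and 285) they were 290 and 467, 6 and 61, 16 and 108, and 673 and 822 with the likelihood-ratio test, without a surrogate variable, with the block and with re-estimated variables, and as low as 18 and 93 without 20 nM replicate 1. In the dose trend (1142 and 1482) they were 505 and 731 without a surrogate variable and 579 and 790 without 20 nM replicate 2. Scaling by library totals changed the split of the dose trend from 1142 lower and 1482 higher to 1318 and 1281.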
